A study of Arabidopsis thaliana with 36 samples.

Results

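Roots of Landsberg erecta (Ler) Arabidopsis seedlings held on salt for 1 h were compared with Ler roots held on mock medium for the same time. The 6 libraries were taken by their labels (genotype Ler, time 1 h) from the 36 libraries of the series, 3 on 140 mM NaCl and 3 on mock. Both groups were wild type, carried no transgene and were 5 d old when moved to the plates. Each library held RNA from 50 to 100 pooled seedlings, from the lower 1 cm of the root, so that tip, elongation zone and young differentiated tissue were measured as a mixture. In such a bulk sample, fewer cells of a type and less RNA per cell cannot be told apart. The study asked how salt alters xylem formation in the seedling root and whether this depends on DELLA proteins, the nuclear repressors of gibberellin responses. Its other libraries carried mutations in gibberellin synthesis or signalling, or were collected after 8 h. Of these, the mutant della5x (alleles rgl3-4, rgl2-1, rgl1-1, rga-t2 and gai-t6, in all DELLA genes) on NaCl and mock for 1 h and Ler on NaCl and mock for 8 h are used below, each with 3 libraries a group.

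High salt reaches a root as an osmotic stress first and as an ion stress later. Loss of water raises the hormone abscisic acid (ABA), which binds PYR/PYL receptors. The bound receptors inhibit clade A PP2C phosphatases, which frees SnRK2 kinases to phosphorylate ABF transcription factors that bind the ABRE element. A partly separate branch runs through DREB factors and the DRE element. Root growth slows early under salt, and the wall enzymes that set how far a cell can extend are among the genes known to follow water stress.

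The NaCl libraries held 18879572 to 23811804 gene-assigned read counts, and the mock libraries 16772984 to 19105647. Levels are given as CPM, the count of a gene scaled to a common library size with TMM factors, and changes as log2 fold changes of NaCl over mock with their standard error (SE). A gene was called at an adjusted P under 0.05 (edgeR quasi-likelihood test, Benjamini-Hochberg adjustment over 20073 genes) with a log2 fold change beyond 0.5 in either direction. The first principal component of the 6 libraries held 59.7% of the variance and separated NaCl from mock. The second held 18.3% and set mock replicate 1 (score 56.7) apart from the other mock libraries (-30.4 and -37.1). On NaCl the 10 early defence markers summed to 113, 88.6 and 58.2 CPM in replicates 1, 2 and 3. In mock replicate 1 they summed to 419 CPM, against 44.6 and 32.3 CPM in the other mock libraries. The 12 root hair genes summed to 826 CPM there, against 490 and 493 CPM in the other mock libraries, and to 315 to 366 CPM on NaCl, below every mock library. Results that rest on mock replicate 1 are therefore also given without it. The root cell type markers summed to 304 to 368 CPM on NaCl and 388 to 448 CPM in mock with no single marker called (1 lower at an unadjusted edgeR P under 0.05, none by DESeq2). The 7 green shoot genes summed to 100.0 to 113 CPM on NaCl, and in mock to 53.8 CPM in replicate 1 and 101 CPM in each other library. Of these genes 5 were tested, with none called or at an unadjusted P under 0.05. Their part in the results was not tested. RGL1, the DELLA gene checked in della5x, was at most 0.175 CPM in the 6 della5x libraries of 1 h and 5.33 to 8.58 CPM in the Ler libraries.

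Among the genes tested, 8.54% were called higher and 5.37% lower on NaCl, and 4.96% and 2.77% changed more than 2-fold up and down. In number these were 1714 higher and 1077 lower, and with 1 library left out 613 to 878 were lower, with 613 without NaCl replicate 3 and 696 without mock replicate 1. The shares are the background for every list below. The lists and their members were chosen with earlier results of these data known, which can favour list shares above this background. The median log2 fold change of all genes was -0.01. The 15 genes of smallest P per direction did not overlap between the groups. Over all genes, 20.8% did not overlap with NaCl higher and 20.4% with NaCl lower.

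The gene with the smallest P of all was PUB19 (AT1G60190, chromosome 1, 22198266 to 22200687), a U-box ubiquitin ligase. It had 198, 261 and 204 CPM on NaCl, against 3.82, 3.06 and 2.54 CPM in mock, a log2 fold change of 6.14 (SE 0.21, edgeR adjusted P = 9.87e-08). NCED3 (AT3G14440, chromosome 3, 4831286 to 4834015) makes the enzyme of the rate-limiting step of ABA synthesis. Its levels were 455, 711 and 449 CPM on NaCl, against 8.49, 12.7 and 8.09 CPM in mock (log2 fold change 5.78, SE 0.29). GOLS2 (AT1G56600, chromosome 1, 21207537 to 21209635) makes galactinol, the donor for raffinose sugars. It had 269, 443 and 446 CPM on NaCl and was close to undetected in mock, at 0.667, 0.219 and 0.363 CPM (log2 fold change 9.86, SE 0.46).

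Regulators filled much of the rest of the top 15. The kinase gene MAPKKK18 had 54.6, 95.5 and 95.0 CPM on NaCl, against 3.33, 3.06 and 2.59 CPM in mock (log2 fold change 4.77). NAC072 (RD26), a drought-induced transcription factor, had 625, 710.4 and 658 CPM on NaCl, against 61.8, 65.7 and 97.7 CPM in mock (3.14). DREB2A, which binds the DRE element, had 406, 321 and 386 CPM on NaCl and 30.3, 31.2 and 43.9 CPM in mock (3.4). In all 3 genes the lowest NaCl library lay several-fold above the highest mock library. AFP3, a negative regulator of ABA signalling that binds ABI5-type factors, and NF-YB2, a subunit of the CCAAT-binding complex, rose with log2 fold changes of 2.57 (SE 0.13) and 3.55 (SE 0.20). The DREB-type factor DEAR1 rose by less (1.76, SE 0.10) but with tight replicates, 147 to 160.1 CPM on NaCl and 43.9 to 47.9 CPM in mock. The phosphatase HAI3, the calcium-regulated kinase CIPK19, the remorin AT2G41870, the WD40-repeat protein AT1G78070, the Myb-like protein AT5G04760 and the lipid-binding protein NTMC2T6.2 completed the 15, with log2 fold changes of 1.95 to 7.33.

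**Figure D1:**
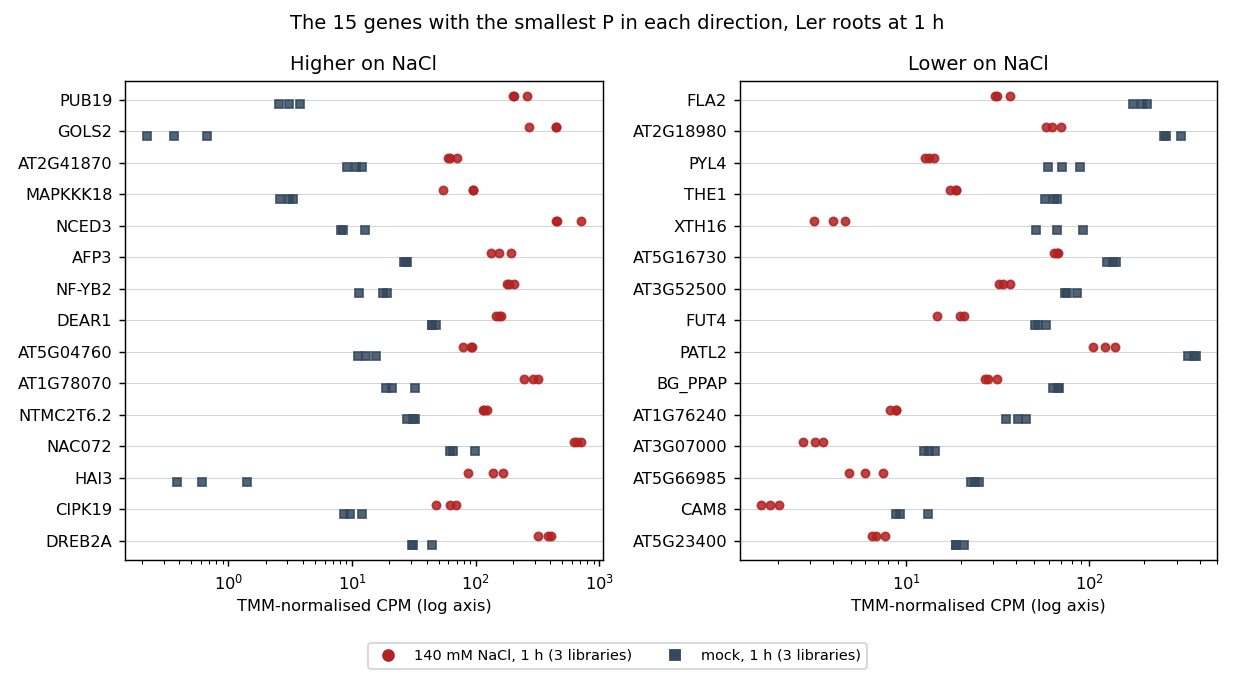
Level of the 15 genes of smallest P per direction, in CPM on a log axis, with 1 point per library, NaCl and mock in the colours of the legend. For every gene shown, the 3 NaCl points lie on one side of the 3 mock points, with the widest gap for GOLS2.

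The genes lower on NaCl with the smallest P encoded surface and wall proteins in several cases. FLA2 (AT4G12730, chromosome 4, 7491227 to 7493080), a fasciclin-like arabinogalactan protein, fell to 30.7, 36.7 and 31.2 CPM on NaCl, against 172, 207 and 194 CPM in mock (log2 fold change -2.54, SE 0.14, edgeR adjusted P = 2.48e-06). The ABA receptor gene PYL4 fell to 12.6, 14.1 and 13.3 CPM, against 59.8, 88.8 and 70.6 CPM in mock (-2.45, SE 0.17). THE1 (AT5G54380, chromosome 5, 22077040 to 22080341), a receptor kinase that senses wall integrity, fell to 18.7, 18.6 and 17.5 CPM, against 57.6, 64.3 and 66.4 CPM in mock (-1.78, SE 0.13). The xyloglucan endotransglucosylase gene XTH16 had the strongest fall of the 15, to 4.00, 4.66 and 3.14 CPM on NaCl, against 51.0, 66.8 and 92.1 CPM in mock (-4.15, SE 0.31). The fucosyltransferase FUT4, the callose-degrading glucanase BG_PPAP, the membrane traffic protein PATL2, the peroxidase AT2G18980 and the calmodulin CAM8 were also in this set, with log2 fold changes of -1.20 to -2.51.

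The 10 largest rises among genes of at least 5 CPM in the higher group were mostly of genes almost silent in mock. AT3G03341, annotated as a cold-regulated protein, had 1107 counts over the NaCl libraries and none in mock, so that it was at least 321-fold higher (floor of 3 counts over the mock group). CBF1, a DREB factor best known from cold, was at least 154-fold higher, and the MYB factor gene MYB121 at least 131-fold higher. The late embryogenesis abundant (LEA) gene AT3G15670 had 14.1, 63.7 and 38.3 CPM on NaCl and 3 counts in all of mock, a ratio of 664 (95% counting interval 227 to 3223). A second LEA gene, AT3G17520, had 11.1, 72.7 and 46.9 CPM on NaCl, against 0, 0.219 and 0 CPM in mock. GASA3, a small secreted peptide gene, had 22.3, 39.4 and 36.6 CPM on NaCl, against 0.242, 0 and 0 CPM in mock. These intervals and floors cover counting error only.

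The regions just before the transcribed part of the genes were searched for the elements of the ABA and DREB branches. In the 250 bases before the start of each gene, the ABRE core ACGTG, read on either strand, was found in 36% of 1696 genes called higher, 22.7% of 1068 called lower and 23.9% of all 19740 genes with sequence. At least 2 separate matches were found in 13.4%, 3.56% and 5.57% of these groups in the same order. The DRE core CCGAC was found in 18.8% of the genes called higher, 9.93% of those called lower and 12.9% of all. The CGCG motif CGCGT, read by calmodulin-binding factors, was in 12.6%, 5.52% and 7.58%, the W box TTGAC of WRKY factors in 46.5%, 52.2% and 45.5%, and the GCC box GCCGCC of ERF factors in 2.24%, 0.936% and 1.94%. Of the 15 genes with the smallest P, 10 of those higher on NaCl and 3 of those lower had an ACGTG match. A match is a description of these letters, not of a bound site, and the sequence is the Col-0 reference (RefSeq, TAIR10.1), not Ler.

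A few of these regions are shown because they carry the contrast between genes that rose and a receptor gene that fell, with every ACGTG and CCGAC match on either strand in capitals (CACGT and GTCGG are the same elements on the other strand). They were chosen after the matches were seen. PUB19 (chr1:22198016-22198265, plus strand) had 4 ACGTG stretches and 1 CCGAC, GOLS2 (chr1:21207287-21207536, plus) 1 CCGAC and no ACGTG, AFP3 (chr3:11384146-11384395, minus) 4 ACGTG and HAI3 (chr2:12608425-12608674, plus) 2. PYL4 (chr2:16049668-16049917, plus) had neither in this window.
PUB19: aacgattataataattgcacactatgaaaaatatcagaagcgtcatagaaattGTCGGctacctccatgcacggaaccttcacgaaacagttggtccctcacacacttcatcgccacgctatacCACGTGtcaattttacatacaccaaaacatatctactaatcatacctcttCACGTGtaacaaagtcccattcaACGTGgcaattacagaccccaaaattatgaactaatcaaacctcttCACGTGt
GOLS2: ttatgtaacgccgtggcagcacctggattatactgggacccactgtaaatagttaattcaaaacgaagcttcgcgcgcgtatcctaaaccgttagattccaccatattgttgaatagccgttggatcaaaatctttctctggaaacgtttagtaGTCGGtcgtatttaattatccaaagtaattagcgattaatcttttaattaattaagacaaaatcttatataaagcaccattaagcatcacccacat
AFP3: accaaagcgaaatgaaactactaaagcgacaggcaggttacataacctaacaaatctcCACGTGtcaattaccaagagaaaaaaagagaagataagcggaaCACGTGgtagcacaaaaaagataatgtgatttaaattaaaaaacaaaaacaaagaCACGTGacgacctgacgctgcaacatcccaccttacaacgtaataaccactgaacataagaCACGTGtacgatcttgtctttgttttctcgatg
HAI3: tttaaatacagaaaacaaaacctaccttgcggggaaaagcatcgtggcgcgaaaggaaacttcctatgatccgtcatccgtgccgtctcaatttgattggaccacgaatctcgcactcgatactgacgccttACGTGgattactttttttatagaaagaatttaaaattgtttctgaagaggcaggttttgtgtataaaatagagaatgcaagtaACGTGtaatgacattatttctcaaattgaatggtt
PYL4: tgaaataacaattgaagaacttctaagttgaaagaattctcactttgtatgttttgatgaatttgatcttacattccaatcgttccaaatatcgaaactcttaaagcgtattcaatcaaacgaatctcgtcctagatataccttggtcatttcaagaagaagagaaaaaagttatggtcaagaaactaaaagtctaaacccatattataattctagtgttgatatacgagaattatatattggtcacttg

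In ABA synthesis and breakdown, 3 of 11 genes tested rose and 1 fell. Beside NCED3, its paralogue NCED9 had 15.6, 8.85 and 11 CPM on NaCl, against 0.424, 0.437 and 0.311 CPM in mock (log2 fold change 4.90, SE 0.40). ABA1, the zeaxanthin epoxidase earlier in the pathway, had 108, 104 and 93.8 CPM on NaCl and 40.2, 40.9 and 37.3 CPM in mock (1.37, SE 0.20). So a gene of an early step and genes of the rate-limiting step both stood higher, with no overlap between the groups. ABA2, which acts after NCED, had 18 to 18.9 CPM on NaCl and 16.9 to 19.1 CPM in mock and was not called. CYP707A3, an ABA 8'-hydroxylase that inactivates the hormone, fell to 10.7, 14.5 and 11 CPM on NaCl, against 151, 75.5 and 73.5 CPM in mock (-3.05, SE 0.57, edgeR adjusted P = 0.00401). Without mock replicate 1 its log2 fold change was -2.60 (edgeR adjusted P = 0.0146). The related hydroxylase CYP707A1 was not called, at 31.3, 98.0 and 49.9 CPM on NaCl and 51.7, 46.8 and 37.4 CPM in mock.

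The receptors and the phosphatases they inhibit went opposite ways. Of 10 receptor genes tested, 5 fell, 2 rose and the median log2 fold change was -0.84, while all 9 clade A PP2C genes rose, with a median of 2.55. Among the receptors, PYL6 fell to 9.25, 6.37 and 8.52 CPM on NaCl, against 36.5, 40.1 and 45.8 CPM in mock (-2.34, SE 0.26). PYL1 fell to 16.2, 13 and 12.4 CPM, against 38.9, 42.4 and 44.8 CPM in mock (-1.60, SE 0.18), and PYR1 to 34.3, 37.6 and 35 CPM, against 67.0, 93.0 and 83.1 CPM (-1.18, SE 0.16). PYL4, PYL6, PYL1 and PYR1 kept their calls with any 1 library left out, whereas PYL2 (-1.52) lost its call with any library but mock replicate 3 left out, at edgeR adjusted P of 0.0555 to 0.125 (0.0873 without mock replicate 1). The receptor genes were not uniform, since PYL7 had 57.3, 56.6 and 57.0 CPM on NaCl, against 1.94, 3.28 and 3.74 CPM in mock (4.24, SE 0.32). PYL9 also rose (1.03, SE 0.15). PYL8 had 74.8 to 95.2 CPM on NaCl and 82.0 to 89.2 CPM in mock and was not called.

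Of the phosphatases, which hold SnRK2 kinases inactive, ABI1 was the most abundant by CPM. It had 601, 691 and 754 CPM on NaCl, against 153, 107 and 121 CPM in mock (log2 fold change 2.42, SE 0.17, edgeR adjusted P = 8.12e-06). AHG3 had 398, 449 and 435 CPM on NaCl and 85.8, 69.2 and 63.8 CPM in mock (2.55, SE 0.17). The 3 HAI genes had the largest log2 fold changes of the family. HAI2 had 15.4, 47.4 and 25.1 CPM on NaCl, against 0.0606, 0.219 and 0 CPM in mock. HAI3 had 86.4, 167 and 139 CPM on NaCl, against 0.606, 0.383 and 1.40 CPM in mock (7.33, SE 0.45, and 8.04 without mock replicate 3). HAI1 had 193, 339.9 and 295 CPM on NaCl, against 23.8, 5.85 and 6.43 CPM in mock (4.53, SE 0.50, and 5.51 without mock replicate 1). HAB2 moved least (1.52, SE 0.13). AHG1, the lowest of them on NaCl at 3.71, 12.3 and 5.06 CPM, against 1.45, 2.4 and 0.778 CPM in mock, lost its call without mock replicate 1 or 3 or NaCl replicate 2 or 3, at edgeR adjusted P of 0.0535 to 0.133. The levels compared here are CPM and are not corrected for gene length.

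**Figure D2:**
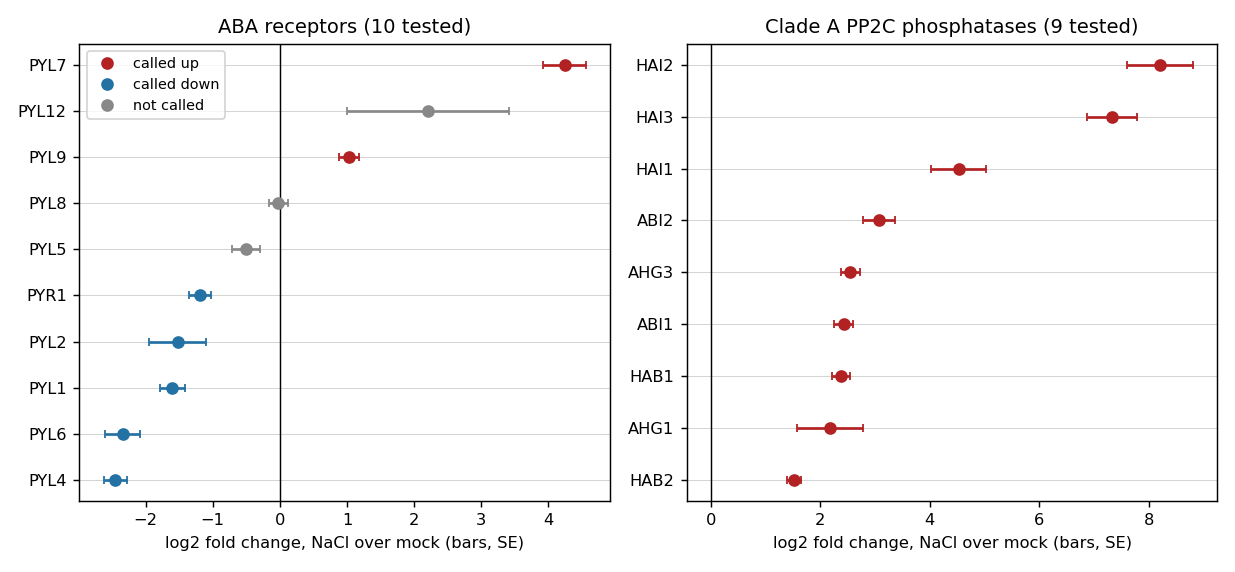
Log2 fold change of NaCl over mock (x axis, bars 1 SE) of the 10 ABA receptor genes and 9 clade A PP2C genes tested, 1 point per gene, coloured by call. All 9 PP2C points lie above 1, whereas 5 receptor genes were called lower and PYL7 and PYL9 higher.

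Downstream, 7 of 15 SnRK2 and ABF genes rose and none fell. The 4 ABF factors, which bind the ABRE, all rose. ABF2 had 142, 182 and 173 CPM on NaCl, against 50.1, 38.5 and 37.9 CPM in mock (log2 fold change 1.97, SE 0.15), and ABF3 had 399, 368 and 432 CPM, against 182, 129 and 149.7 CPM (1.38, SE 0.16). ABF1 and ABF4 rose by 1.30 (SE 0.21) and 1.02 (SE 0.13). Of the 3 kinases most tied to ABA, SNRK2.3 had 50.7, 43.1 and 59.3 CPM on NaCl and 32.1, 32 and 31.6 CPM in mock (0.68, SE 0.12). SNRK2.6 was called too (0.60), but not in 4 of the 6 fits that left out 1 library (edgeR adjusted P up to 0.0761). SNRK2.2 was not called, with 80.3 to 84.6 CPM on NaCl and 80.7 to 86.8 CPM in mock (-0.02, SE 0.08).

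Dehydration protective proteins rose almost throughout. They are hydrophilic LEA-type and cold-regulated proteins thought to shield membranes and proteins. Of 18 tested, 17 rose and none fell, with a median log2 fold change of 2.69. With 1 library left out, 15 to 17 rose (15 without NaCl replicate 2 or mock replicate 2), and 15 with the 6 Ler libraries alone. RD29A had 1489.8, 1701 and 2069 CPM on NaCl, against 204, 96.8 and 98.1 CPM in mock (3.72, SE 0.34, edgeR adjusted P = 4.19e-05). LEA7 had 142, 363 and 294 CPM on NaCl and 6.49, 3.55 and 4.41 CPM in mock (5.79, SE 0.46), and LEA4-5 had 221, 449 and 392 CPM, against 14.1, 5.68 and 5.03 CPM (5.43, SE 0.44). In each of these genes the lowest NaCl library lay several times above the highest mock library. LEA4-5 had 6.07 without mock replicate 1, its highest mock library. The dehydrin ERD10 had 2176, 2321 and 2523 CPM on NaCl and was abundant in mock too, at 629, 594 and 485 CPM (2.04, SE 0.17). LTI30 and COR413PM1 rose by 2.36 (SE 0.23) and 1.81 (SE 0.14). COR15A had 60 counts over the NaCl libraries and none in mock, at least 17-fold higher, and lost its call without mock replicate 2 (edgeR adjusted P = 0.0513) or NaCl replicate 2 (0.0515). RD20 had 42 counts over the NaCl libraries and 1 in mock. Its call was lost without mock replicate 1 or 2 or NaCl replicate 2 or 3 (edgeR adjusted P of 0.0544 to 0.0725, 0.0632 without mock replicate 1).

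Among osmolyte genes 5 of 8 rose. P5CS1, the stress-induced enzyme of proline synthesis, had 260.1, 306 and 368 CPM on NaCl, against 61.9, 91.3 and 81.8 CPM in mock (1.99, SE 0.24). RS5, a raffinose synthase that uses galactinol, had 517, 758 and 679.6 CPM on NaCl and 88.8, 116 and 114 CPM in mock (2.62, SE 0.23). With GOLS2, genes of consecutive steps toward raffinose rose together. GOLS1 (log2 fold change 1.31) and P5CS2 (0.50) each lost their call in 4 of the 6 fits that left out 1 library (edgeR adjusted P up to 0.0787 and 0.104), and the list then held 3 to 4 called genes, with 3 without NaCl replicate 3 or mock replicate 2.

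**Figure D3:**
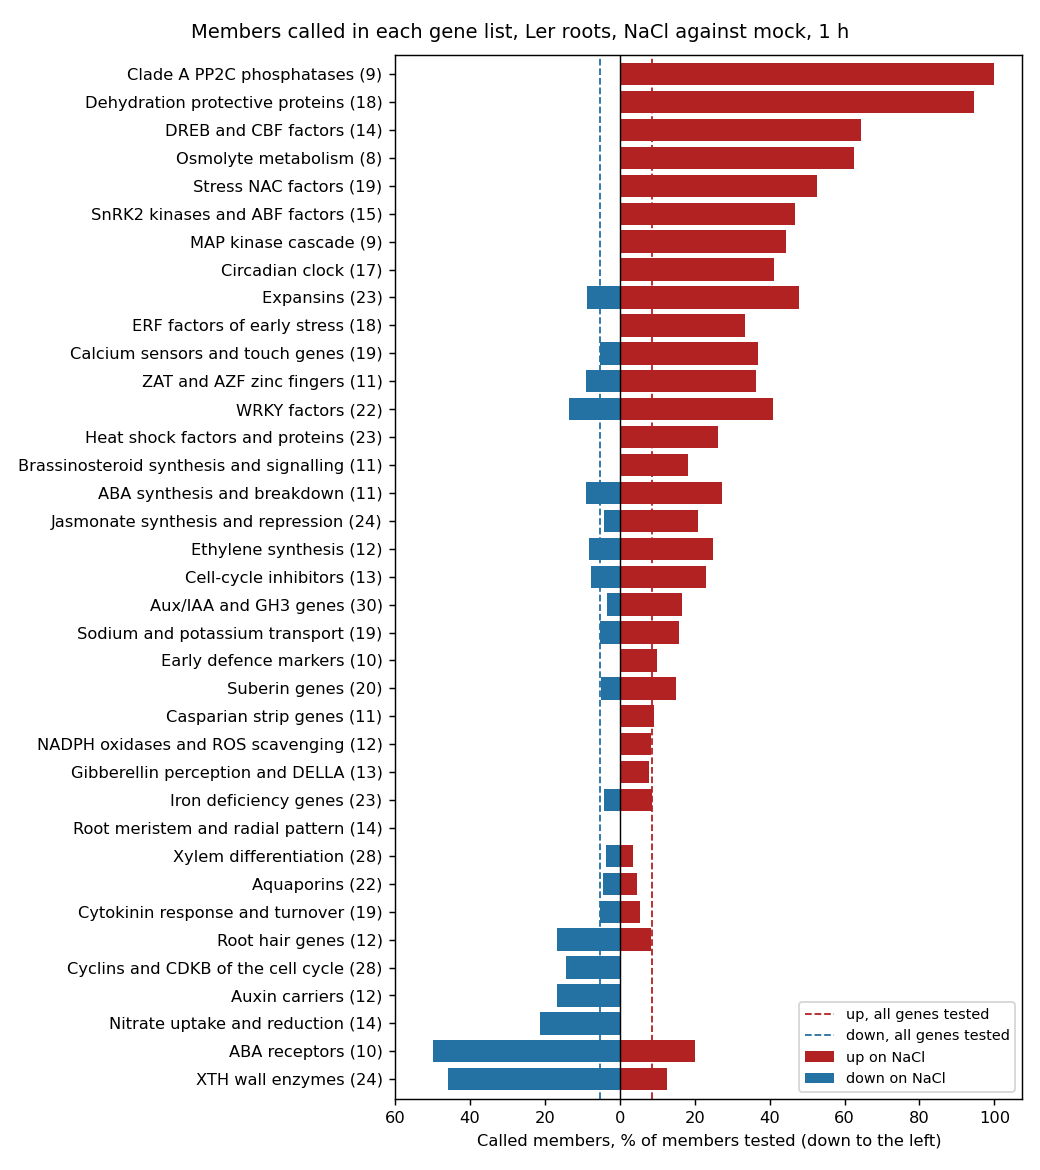
Share of the tested members (number in brackets) of each list called higher (to the right) or lower (to the left) on NaCl, with dashed lines at the shares of all genes, 8.54% and 5.37%. All 9 PP2C and 17 of 18 dehydration genes were higher, while 11 of 24 XTH genes and 5 of 10 ABA receptor genes were lower.

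Transcription factor families differed in how far they moved. In the DREB and CBF group 9 of 14 rose and none fell (median 2.02), with any 1 library left out as well. CBF4, which has been tied to drought, had 8.08, 9.01 and 6.18 CPM on NaCl and 2 counts in all of mock, a ratio of 211 (95% counting interval 58.0 to 1745). CBF2 had 17.1, 11 and 3.68 CPM on NaCl, against 0.303, 0.328 and 0.156 CPM in mock. CBF1, CBF2 and CBF3 are neighbouring, closely similar genes, so that reads may have been split among them. DREB2B, the paralogue of DREB2A, had 9.17, 9.52 and 9.32 CPM on NaCl and 2.42, 1.37 and 1.30 CPM in mock (2.46, SE 0.37). Of 19 stress NAC factors 10 rose and none fell (median 1.39). NAC002 (ATAF1) had 524, 456 and 470.4 CPM on NaCl, against 108, 87.6 and 97.6 CPM in mock (2.31, SE 0.17), and NAC032 and NAC102 of the same clade rose by 1.72 (SE 0.13) and 1.54 (SE 0.12).

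Of 23 heat shock genes, 6 rose and all 6 encoded heat shock factors. Without mock replicate 1 there were 7, as the chaperone gene HSP70 was then called higher as well (1.13, edgeR adjusted P = 0.00690, against 0.65 and 0.144 with all libraries). HSFA6B, an ABA-responsive factor, had 731, 877 and 943 CPM on NaCl, against 52.9, 28.1 and 69.1 CPM in mock (4.09, SE 0.36, edgeR adjusted P = 3.20e-05), and HSFA3 and HSFA6A, both below 0.5 CPM in mock, rose by 3.59 (SE 0.58) and 4.36 (SE 0.65). The chaperone gene HSP101 was not called, with 17.9, 16.9 and 13.2 CPM on NaCl and 30.5, 10.8 and 11 CPM in mock. In the ZAT and AZF zinc fingers, repressors of stress genes, 4 of 11 rose and 1 fell. AZF2 had 140.3, 147 and 176 CPM on NaCl, against 25.3, 14.8 and 24.7 CPM in mock (2.84, SE 0.21), and ZAT6 had 144, 156 and 190.4 CPM, against 22.5, 19 and 14 CPM (3.14, SE 0.24). ZAT12 (0.86) was called at an edgeR adjusted P of 0.0487 and lost the call with any 1 library left out (0.0551 to 0.158).

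WRKY factors, best known from defence, went both ways, with 9 of 22 higher and 3 lower. With 1 library left out, the counts were 5 to 8 higher (5 without mock replicate 2 or 3) and 1 to 2 lower (2 only without mock replicate 3). WRKY75 had 42.8, 59.6 and 60.3 CPM on NaCl, against 13.7, 13.8 and 16.6 CPM in mock (1.88, SE 0.17). WRKY33, an activator of defence genes, had 175, 261 and 203 CPM on NaCl and 56.1, 43.9 and 35.8 CPM in mock (2.23, SE 0.34). Of the 3 that fell, WRKY11 (-0.87, SE 0.17) had 60.1, 68.4 and 91.7 CPM on NaCl, against 154, 125 and 123 CPM in mock. WRKY22 (-1.33) lost its call with any library but mock replicate 3 left out (edgeR adjusted P of 0.0525 to 0.123), and WRKY17 (-0.57) with any library left out (0.0647 to 0.140). Of 10 early defence markers only PROPEP2 was called higher, and not without NaCl replicate 1 or mock replicate 2 (edgeR adjusted P = 0.0754 and 0.0595). Without mock replicate 1, where these markers were highest, 2 were called higher, with PROPEP3 added (1.68, edgeR adjusted P = 0.0168, against 0.97 and 0.156 with all libraries), and DESeq2 called 2 higher and 1 lower. In the ERF list 6 of 18 rose and none fell, with 3 to 5 higher when 1 library was left out (3 without mock replicate 2 or 3). ERF8, a repressor, had 20.2, 25.6 and 21.1 CPM on NaCl, against 3.70, 3.72 and 2.44 CPM in mock (2.76, SE 0.29), and ERF53 and ERF4 rose by 3.85 (SE 0.46) and 1.88 (SE 0.32).

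Ethylene synthesis genes of one step, ACC synthase, moved both ways. ACS6 had 96.5, 218 and 89.3 CPM on NaCl, against 26.4, 16.6 and 13.1 CPM in mock (2.85, SE 0.55), and ACS7 and ACS2 rose by 1.52 (SE 0.25) and 1.36 (SE 0.29). ACS5 fell by 1.85 on the log2 scale (SE 0.41) and lost the call without NaCl replicate 3 (edgeR adjusted P = 0.0518). Of 24 jasmonate genes 5 rose and 1 fell, and 2 to 5 rose with 1 library left out, the fewest without mock replicate 2. CYP94B3, which breaks down jasmonoyl-isoleucine, had 49.2, 79.9 and 39.2 CPM on NaCl and 14.1, 11.5 and 8.77 CPM in mock (2.29, SE 0.49). The repressor gene JAZ3 rose by 1.11 (SE 0.25), and AOC4 of jasmonate synthesis fell by 0.78 (SE 0.16).

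In the MAP kinase list 4 of 9 genes rose. MAPKKK17, the close paralogue of MAPKKK18, had 80.8, 160.1 and 128 CPM on NaCl, against 15, 12.2 and 10.4 CPM in mock (3.29, SE 0.26), while MKK9 (1.35) lost its call with any 1 library left out (edgeR adjusted P of 0.0822 to 0.121). Of 19 calcium sensor and touch genes 7 rose and 1 fell. TCH4, which is also the xyloglucan enzyme XTH22, had 38.1, 41.6 and 36.4 CPM on NaCl, against 1.88, 1.31 and 0.986 CPM in mock (4.80, SE 0.86). CML42, a calmodulin-like protein, fell to 22.2, 29.1 and 24.2 CPM, against 73.0, 82.3 and 75.9 CPM in mock (-1.61, SE 0.17). With 1 library left out, 4 to 7 of the list rose, 4 without NaCl replicate 2 or 3 or mock replicate 2 or 3.

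Most ion transport genes were not called. Over all genes 8.54% were called higher and 5.37% lower. Of 19 sodium and potassium transport genes 3 rose, namely the vacuolar exchangers NHX2 (0.78, SE 0.14) and NHX3 (2.28, SE 0.41) and the outward potassium channel GORK. GORK had 22.7, 47.1 and 41.1 CPM on NaCl, against 12.2, 18.8 and 14.2 CPM in mock (1.29, SE 0.28). SOS1, the plasma membrane sodium exporter, was not called, with 49.0, 53.3 and 53.7 CPM on NaCl and 38.5, 48.1 and 48.4 CPM in mock (0.21, SE 0.12). HKT1, which retrieves sodium from the xylem, had 10, 2.28 and 8.31 CPM on NaCl and 16.8, 9.29 and 18.2 CPM in mock and was not called either (-1.09, SE 0.62). The main root proton pump gene AHA2 was called lower (-0.69), but not with any library except mock replicate 3 left out (edgeR adjusted P of 0.0569 to 0.159, with -0.50 without mock replicate 1). In the nitrate list none of 14 rose and 3 fell, but 1 without mock replicate 1 or NaCl replicate 1 or 3. The one with the smallest P was the transporter family gene AT3G45710, with 128, 116 and 126 CPM on NaCl, against 225, 181 and 221 CPM in mock (-0.76, SE 0.16). Of 22 aquaporin genes, PIP1;4 was higher (0.68, lost without NaCl replicate 3 or mock replicate 3, edgeR adjusted P = 0.0686 and 0.0572) and NIP1;1 lower (-0.66, SE 0.14).

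The expansins and xyloglucan endotransglucosylase/hydrolases (XTHs), which loosen or remodel the wall of growing cells, parted. Of 23 expansins 11 rose and 2 fell (median log2 fold change 0.71), and of 24 XTH genes 3 rose and 11 fell (median -0.70). With 1 library left out, 8 to 11 expansins rose (8 without mock replicate 3) and 0 to 1 fell. For the XTH genes the counts were then 1 to 3 higher and 10 to 11 lower. EXPA11 had 114, 121 and 156 CPM on NaCl, against 23.5, 28.6 and 29.9 CPM in mock (2.25, SE 0.42, edgeR adjusted P = 0.00401). EXLA1, an expansin-like gene, had 95.0, 93.3 and 118 CPM on NaCl and 22.8, 21.6 and 22.6 CPM in mock (2.19, SE 0.24). EXPA9 had 218, 225 and 233 CPM on NaCl, against 77.5, 73.4 and 78.8 CPM in mock (1.56, SE 0.27). EXPA1, the expansin whose mutant the study examined, had 62.2, 96.1 and 71.5 CPM on NaCl and 28.8, 12.8 and 8.40 CPM in mock (2.21, SE 0.48), and 2.88 without mock replicate 1. Of the expansins that rose, EXPA13 (0.56), EXPA15 (0.61) and EXPA16 (4.88) lost their calls in 2, 4 and 2 of the 6 fits that left out 1 library (edgeR adjusted P up to 0.0611, 0.0888 and 0.0583). The 2 expansins that fell, EXPB1 (-1.17) and EXPA14 (-0.95), lost theirs in 4 and 5 of these fits (edgeR adjusted P up to 0.0940 and 0.165).

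Among the XTHs that fell, XTH8 had 18.9, 18.4 and 14.3 CPM on NaCl, against 97.5, 121 and 119 CPM in mock (-2.71, SE 0.34), and XTH18 had 18.2, 35.6 and 18.6 CPM, against 79.8, 131 and 112 CPM (-2.16, SE 0.31). XTH12 and XTH13, neighbouring genes on chromosome 5, were highest in mock replicate 1. XTH13 had 0.375, 0.983 and 0.373 CPM on NaCl, against 36.2, 7.60 and 6.38 CPM in mock (-4.86, SE 0.79), and without mock replicate 1 its log2 fold change was -3.58 (edgeR adjusted P = 0.00212), and -5.46 without NaCl replicate 2. XTH12 had 1.38, 2.12 and 1.12 CPM on NaCl, against 73.5, 13.2 and 13.2 CPM in mock (-4.43, SE 0.72), and -3.08 without that library. XTH17, a close relative of XTH18, fell to 1.00, 2.59 and 0.320 CPM on NaCl, against 9.70, 37.0 and 28.6 CPM in mock (-4.27, SE 0.90, and -5.19 without NaCl replicate 2). Reads of such close copies may have been shared. Of the 3 XTHs that rose, XTH23 lost its call without mock replicate 1 or 2 or NaCl replicate 2 (edgeR adjusted P of 0.0507 to 0.0544) and XTH28 with any library but NaCl replicate 3 left out (0.0526 to 0.139). TCH4 kept its call in all 6 fits. XTH20 was not called with all libraries (1.44) but was called higher without mock replicate 1 (2.19, edgeR adjusted P = 0.00908). In that fit the 2 XTHs called higher were TCH4 and XTH20.

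**Figure D4:**
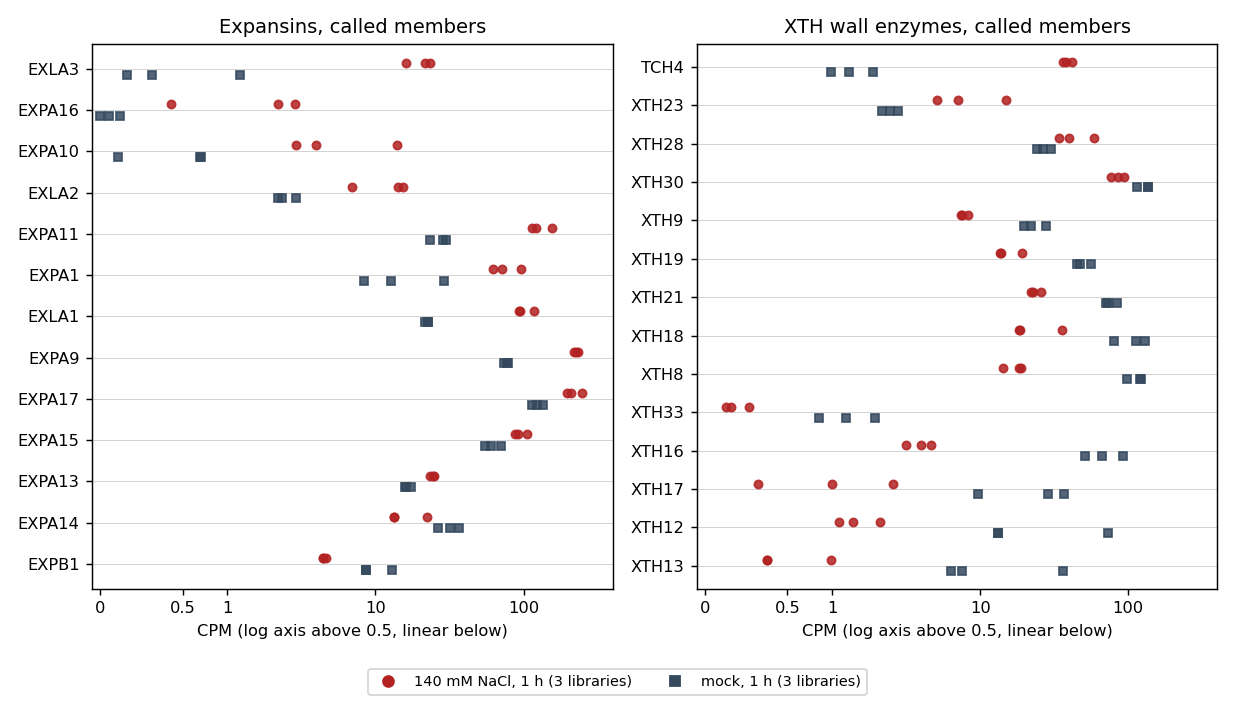
CPM of the called expansin and XTH genes, 1 point per library, NaCl and mock in the colours of the legend, on an axis that is logarithmic above 0.5 CPM and linear below. Of the 13 called expansins 11 lie higher on NaCl, and of the 14 called XTH genes 11 lie lower, with TCH4 furthest the other way.

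Other wall genes were among the 10 largest falls. AGP22, an arabinogalactan peptide, fell to 3.0, 3.42 and 3.89 CPM on NaCl, against 59.6, 67.7 and 69.7 CPM in mock (-4.26, SE 0.41). EXT13, an extensin, fell to 2.38, 3.11 and 2.29 CPM, against 93.7, 33.7 and 32.2 CPM in mock (-4.36, SE 0.59), with -3.65 when mock replicate 1 was left out. UCC3, a copper-binding uclacyanin, fell to 0.208, 0.569 and 0.160 CPM, against 19.4, 5.08 and 6.17 CPM in mock (-5.02, SE 0.67), with -4.14 without that library and -5.73 without NaCl replicate 2. In all 3 genes the groups were far apart, and in EXT13 and UCC3 mock replicate 1 was the highest mock library. The wall peroxidase gene AT1G14550 fell to 0.833, 2.74 and 0.799 CPM, against 28.1, 28 and 21 CPM in mock (-4.15, SE 0.45, and -4.96 without NaCl replicate 2). Of 12 root hair genes PRP3 (-2.26) and LRX1 (-1.97), wall proteins of the growing hair, were called lower, but not without mock replicate 1 (-1.43 and -1.49, edgeR adjusted P = 0.0517 and 0.0620) or NaCl replicate 3 (0.0631 and 0.0612). LRX1 was not called without NaCl replicate 1 either (0.0563). The summed level of the root hair list was 315 to 366 CPM on NaCl, against 490 to 826 CPM in mock. PRP3 and LRX1 are members of this list, so that its sum falls with them in part by construction. XTH12, XTH13 and EXT13, which are not in the list, fell too, and the part of the list's level in their falls was not tested. CPC, a small MYB protein of hair cell fate, rose (1.04, SE 0.21).

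In each of the cell cycle and growth hormone lists most genes were not called. Over all genes 8.54% were called higher and 5.37% lower. Of 28 cyclin and CDKB genes 4 fell and none rose, with 1 to 3 lower when 1 library was left out (1 without NaCl replicate 3 or mock replicate 3). CYCA1;1 fell to 13.9, 11.9 and 11.6 CPM on NaCl, against 17.1, 21.7 and 22.0 CPM in mock (-0.70, SE 0.14), and the other 3 fell by less. Of 13 cell-cycle inhibitors 3 rose (2 to 4 with 1 library left out) and 1 fell. SMR5, which is induced by stress, had 4.67, 15.2 and 5.59 CPM on NaCl, against 1.82, 1.09 and 1.14 CPM in mock (2.65, SE 0.55, and 1.92 without NaCl replicate 2), while SMR1 fell (-0.96, SE 0.22). Auxin genes gave 5 of 30 Aux/IAA and GH3 members higher (2 to 4 with 1 library left out, 2 without NaCl replicate 2 or mock replicate 2) and 1 lower. IAA14, the repressor of lateral root formation, was the one that fell, to 12.3, 12.3 and 9.75 CPM on NaCl, against 25.8, 34 and 31 CPM in mock (-1.40, SE 0.15). Of 12 auxin carriers 2 fell, and 1 to 2 with 1 library left out. The influx carrier LAX3 fell to 61.2, 50.2 and 50.7 CPM, against 115, 104 and 104 CPM in mock (-0.99, SE 0.11). In the cytokinin list 1 of 19 genes rose (0 to 1 with 1 library left out) and 1 fell. The synthesis gene IPT3 fell to 0.750, 1.45 and 0.426 CPM, against 8.49, 5.68 and 5.24 CPM in mock (-2.88, SE 0.37). Of 11 brassinosteroid genes 2 rose, the synthesis genes ROT3 and CPD, by 0.81 (SE 0.13) and 0.91 (SE 0.16). RGL3 was the only one of 13 gibberellin perception and DELLA genes called (0.91), and lost the call in every fit that left out 1 library except that without NaCl replicate 2 (edgeR adjusted P of 0.0524 to 0.150).

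Few meristem, radial pattern and xylem genes were called. None of 14 meristem and radial pattern genes was called by edgeR or DESeq2, and 2 had an unadjusted edgeR P under 0.05, both lower on NaCl. Of 28 xylem differentiation genes VND2, a vessel switch factor, rose (0.99) and ACL5, a thermospermine synthase that delays xylem maturation, fell to 24.2, 16.0 and 20.2 CPM, against 39.6, 30.4 and 33.9 CPM in mock (-0.78, SE 0.17). VND2 lost its call without mock replicate 1 or 3 or NaCl replicate 3 (edgeR adjusted P of 0.0533 to 0.0889). In the suberin list 3 of 20 rose, and all 3 were MYB factors. MYB41 had 74.3, 88.2 and 87.9 CPM on NaCl, against 7.52, 6.89 and 5.45 CPM in mock (3.66, SE 0.28). The enzyme gene GPAT5 was not called, at 41.3, 99.4 and 61.7 CPM on NaCl and 60.7, 52.1 and 29.6 CPM in mock. With 1 library left out, 1 to 8 of the list were higher, 8 of them without mock replicate 1 and 1 without NaCl replicate 1 or mock replicate 2 or 3. The genes added without mock replicate 1 were the enzyme genes GPAT7 (1.73, edgeR adjusted P = 0.00825), KCS2 (1.01), KCS20 (0.58) and ASFT (0.58) and the factor gene MYB107 (1.12). Of 17 circadian clock genes 7 rose and none fell, 5 without mock replicate 1 or NaCl replicate 1 or 2. RVE1 had 30.5, 46.2 and 29.9 CPM on NaCl, against 9.82, 11.1 and 10.9 CPM in mock (1.74, SE 0.17), and LUX rose by 1.11 (SE 0.16). Where no gene of a list was called lower, none was lower by DESeq2 or at an unadjusted edgeR P under 0.05 in the PP2C, dehydration, osmolyte, DREB, NAC, heat shock and clock lists. At that unadjusted level 1 was lower in the SnRK2 and ABF list, 1 in the ERF list and 1 in the brassinosteroid list, with none by DESeq2. In the MAP kinase list 2 were lower at that level and 1 by DESeq2, and in the early defence list 1 by either. In the nitrate and cyclin lists, where none was called higher, 1 and 3 members were higher at that level and none by DESeq2.

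The same contrast in della5x at 1 h, which shares no library with the Ler contrast, called 6.62% of genes higher and 3.52% lower. Of the 1714 genes higher in Ler, 1030 (60.1%) were also called higher in della5x, and of the 1077 genes lower in Ler, 511 (47.4%) were called lower. The mutant is another genotype and no replicate of Ler. The median log2 fold changes of these genes were 0.88 in della5x and 1.15 in Ler for the rises, and -0.73 in della5x and -1.03 in Ler for the falls. The genes were chosen in Ler, which favours the larger median there. In neither set did edgeR call a gene for the difference of the responses (adjusted P under 0.05), with 253 of 1714 and 129 of 1077 at an unadjusted P under 0.05. The share at that level over all genes was not taken, so these counts are given without a reading. The study itself used an unadjusted P under 0.05, from DESeq2, to list DELLA-dependent genes at 1 h. The lack of a call does not show that the responses were equal. All 15 genes of smallest P per direction were called in della5x in the same direction. PUB19 had a log2 fold change of 5.13 there, NCED3 5.48, FLA2 -2.33 and XTH16 -3.85. CYP707A3 was not called in della5x (-0.55, edgeR adjusted P = 0.562), and its difference from the response in Ler (2.5) was not called either.

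At 8 h, 13.2% of genes were called higher and 11.1% lower on NaCl in Ler. Of the genes higher at 1 h, 797 were also higher at 8 h, 843 were not called and 64 were lower, and of those lower at 1 h, 397 were lower, 599 were not called and 77 were higher. The difference of the responses was called in either direction for 8.94% and 9.54% of all genes. It uses the same 1 h libraries that made the calls, so that a move back towards 0 is favoured by the choice. It was called toward a smaller response at 8 h for 681 of the genes higher at 1 h and toward a larger one for 46. For the genes lower at 1 h it was called toward less of a fall, or a rise, for 469 and toward a deeper fall for 51.

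Several regulators had a smaller response at 8 h. DREB2A had a log2 fold change of 0.78 at 8 h and 3.4 at 1 h (difference -2.63, edgeR adjusted P = 1.08e-05), PUB19 2.98 at 8 h and 6.14 at 1 h, and PYL7 1.26 at 8 h and 4.24 at 1 h. NCED9 had 0.38 at 8 h and 4.90 at 1 h, whereas NCED3 still had 4.14 at 8 h. All 9 PP2C genes and 16 of the 17 dehydration genes were higher at 8 h too, and for GOLS2 (8.63) and HAI3 (7.87) no difference from 1 h was called. PYL4 had -2.35 at 8 h and -2.45 at 1 h, and PYL6 fell further, with -5.14 at 8 h and -2.34 at 1 h (difference -2.81, edgeR adjusted P = 0.000478). CYP707A3 turned to 0.87 at 8 h (difference 3.91, edgeR adjusted P = 0.00128), and CYP707A1 had 3.70 at 8 h and 0.40 at 1 h. In the suberin list 18 of 20 genes were higher at 8 h, against 3 at 1 h (1 to 8 with 1 library left out, 8 without mock replicate 1), with the difference called larger for 15. In the iron list 12 of 23 genes were lower at 8 h, against 1 at 1 h. That count was 0 to 2 with 1 library left out, 4 by DESeq2 and 5 with the 6 Ler libraries alone, and it was 4 in della5x at 1 h.

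**Figure D5:**
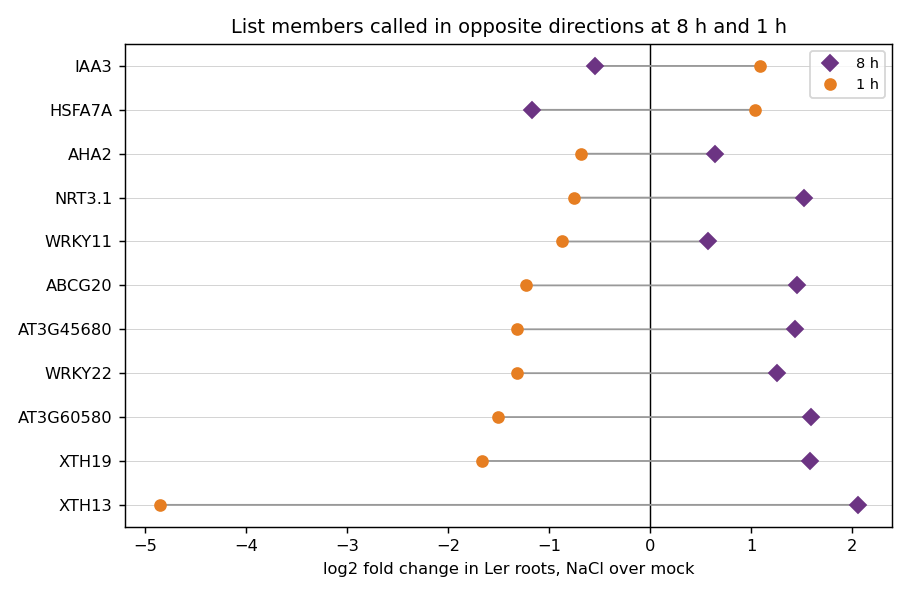
Log2 fold change of NaCl over mock in Ler at 8 h and at 1 h for the 11 list members called in opposite directions at these times, with a line joining the times. XTH13 lies at 2.05 at 8 h and -4.86 at 1 h, and HSFA7A at -1.18 at 8 h and 1.04 at 1 h.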

How the data were processed

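RNA was measured by paired-end sequencing. Per the labels and the methods, reads were trimmed with fastp, mapped to TAIR10 (HISAT2) and assigned to genes (HTSeq), and the authors deposited the raw counts of 28775 genes. The counting mode, the strand setting and tool versions are not given in the sources used here, so reads of overlapping genes and close copies cannot be assigned with certainty.

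Groups came from the labels. The methods call the replicates biological, each a separate pool of seedlings, and P values measure the spread between these pools. Ler and della5x at 1 h (12 libraries) were fitted together with edgeR 4.0.16 in R 4.3.3 (quasi-likelihood test, TMM factors, filterByExpr at min.count 10 and min.total.count 15), and the 12 Ler libraries were fitted for the difference between 8 h and 1 h. The SE is the absolute log2 fold change divided by the square root of F. Replicates are numbered in the order of the sample list. They differed by 11.3 to 36.1 times the sampling variance, more than the same library sequenced again would. This ratio cannot tell separate pools from repeat preparations of 1 pool. CPM are TMM-normalised, not corrected for length. The 37 gene lists, the members and the tests were chosen with earlier results of these data known. Named are the 15 genes with the smallest P and the 10 with the largest change (mean of at least 5 CPM in the higher group) in each direction, and in each list up to 6 called members a direction by P, its defining members and those that go against it. EXPA1 was named because the study examined its mutant. List medians were the same with genes absent in mock set at their bound. Intervals for ratios of low counts are exact 95% intervals.

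On simulated counts for 19765 genes of the contrast between Ler on NaCl and Ler on mock at 1 h, 49.1% of 112 genes with a log2 change of 1 and 87.5% of 88 with a change of 2 were recovered, with 4 false calls. Far fewer genes were changed there than were called in the data, which makes the adjusted threshold stricter. The changed genes were drawn above a minimum mean level, and the counts followed the fitted model with no library set apart. RefSeq TAIR10.1 gave names for 28009 genes, positions and upstream sequence. Alternatives were RLE factors, no filter, DESeq2 1.42.0, other sets of libraries in the fit, a log2 threshold of 1 and leaving out each library.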

Additional observations from a re-analysis of the deposited data

Results flagged for a closer look

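For 11 genes of the lists the response to salt in Ler was called in opposite directions at 8 h and at 1 h, and the difference of the responses was itself called (edgeR, 12 Ler libraries). The values are the log2 fold change at 8 h minus that at 1 h, and what lies behind them was not tested. XTH13, the xyloglucan enzyme gene, had the largest difference, 6.90 (2.05 at 8 h and -4.86 at 1 h), followed by XTH19 with 3.24 (1.58 at 8 h and -1.67 at 1 h, edgeR adjusted P = 3.02e-06) and the zinc finger gene AT3G60580 with 3.1. Genes of nitrate transport were NRT3.1, a partner of the high-affinity nitrate transporter, with a difference of 2.26, and AT3G45680 with 2.74. The proton pump gene AHA2 differed by 1.31 and the suberin transporter gene ABCG20 by 2.67. Among factors, WRKY22 differed by 2.56 and WRKY11 by 1.43. In the other direction, higher at 1 h and lower at 8 h, HSFA7A differed by -2.22 (-1.18 at 8 h and 1.04 at 1 h) and the auxin repressor gene IAA3 by -1.65. The calls at 1 h of WRKY22, AT3G60580, AHA2, NRT3.1 and AT3G45680 were lost without mock replicate 1, and not only there. Of the 6 fits that left out 1 library, WRKY22 and AHA2 lost the call in 5, AT3G45680 in 4, and AT3G60580 and NRT3.1 in 3.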

How the results depend on the processing

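The main counts were 1714 genes higher and 1077 lower. With a log2 threshold of 1 they were 995 higher and 557 lower. With each library left out, 1202 to 1516 were higher and 613 to 878 lower, with 613 without NaCl replicate 3 and 696 without mock replicate 1. Other settings kept both counts within 1.5 times, with 2021 and 1415 by DESeq2 and 2076 and 1385 with the 6 Ler libraries alone, a fit that holds no library of della5x or of 8 h and so gave no value for those comparisons. In no alternative did a gene called by the main analysis change direction. Genes called alike in both genotypes numbered 1541, and 1179 to 1360 with a library left out. Genes whose response differed between 8 h and 1 h numbered 3683, and 2957 to 3854 with a library left out. The genes named for the smallest P or the largest change lost no call. Of 652 list members and named genes, 35 lost and 16 gained a call without mock replicate 1, and 36 to 49 lost and 0 to 6 gained one without each other library (49 lost without mock replicate 2). No paired analysis was made, because the labels carry no replicate numbers. By the order of the sample list, NaCl replicate 1 had the highest early defence sum on NaCl (113 CPM, against 88.6 and 58.2 CPM). Its second-component score was also the highest there (15.3, against 3.37 and -7.93). Its root hair sum was the lowest (315 CPM, against 366 and 353 CPM). Whether libraries of the same number share a batch was not tested. Fits without mock replicate 1 keep NaCl replicate 1. Depth limits genes with few mock counts, whose ratios carry wide intervals. Changes near 2-fold were often missed in the simulation, where fewer genes changed than were called in the data.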
